A study of Drosophila melanogaster with 6 samples.

Results

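The genes described here are the odorant receptor (Or) and gustatory receptor (Gr) genes of Drosophila melanogaster, in RNA of whole larvae of instar 1. Members were all genes whose symbol in the array's annotation is Or or Gr followed by a map position, together with Orco, each read by its brightest probe set that names a single gene. The rule gave 113 genes of 11981 measured, of which 57 were Or genes (Orco included) and 56 were Gr genes. They were read by 126 probe sets. A reference table of fly genes lists 120 receptor symbols. Of the 7 without a single-gene probe set, Or19a, Or19b, Gr64b, Gr64c, Gr64d and Gr64e shared probe sets with another receptor gene, and Or83a was not analysed here.

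The larvae were either mutant for Pof (the series title names the mutation Pof D119) or wild type, with 3 Affymetrix arrays for each group. Each array was a separate biological replicate of 200 larvae with the sexes and tissues mixed, so every value is an average over a whole body. No label gives an age beyond the instar, a parent stock, a batch or a treatment. Pof encodes a protein that binds along chromosome 4, where none of the 113 receptor genes lie; 28 are on 2R, 28 on 3R, 27 on 2L, 18 on 3L and 12 on X.

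Insect odorant receptors are membrane proteins of olfactory neurons. An olfactory neuron typically makes a single tuning receptor, which sets the odours it answers to, together with the co-receptor Orco, and both form a ligand-gated channel. Gustatory receptors serve in taste neurons of the mouthparts and pharynx and, for the carbon dioxide receptors, in gas-sensing neurons. The larval head has only a small set of such neurons, grouped in the dorsal and terminal organs and along the pharynx.

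Pof, the gene named in the mutant label, gave 8.35, 8.44 and 8.43 in mutant-labelled larvae, against 6.74, 6.83 and 6.82 in wild type larvae. All 3 mutant-labelled values lay above all wild type values, and the means differed by 1.61 (log2, SE 0.07, limma adjusted p = 9.47e-05), so the signal was higher under the mutant label. The nature of the mutation, and where the probe set lies relative to it, were not given in the labels. With neither known, these values cannot check the labels. Groups are therefore called by their labels, and each direction below rests on them. The 11 measured neuron marker genes of 12 listed had a median signal of 8.82, 8.92 and 8.97 on the mutant-labelled arrays, against 8.91, 9.24 and 9.06 on the wild type arrays. Wild type replicate 1 stood apart in its cuticle genes, with a median of 11.6 over 15 genes against 7.29 to 7.76 on the other 5 arrays. Of those 15 genes 0 rose and 1 fell (TwdlN, limma adjusted p = 0.0393), where 2.65% of all genes rose and 1.44% fell. All 15 had a lower mean in mutant-labelled larvae, with a median difference of -1.04, and 5 had an unadjusted p under 0.05. For some, such as TwdlB, the direction rested on wild type replicate 1, which read 13.0. The other wild type values of TwdlB were 6.58 and 6.87, under its mutant-labelled mean of 7.47. TwdlN was lower in mutant-labelled larvae without that array too, with 13.4 on both other wild type arrays against a mutant-labelled mean of 13.0. On wild type replicate 1, 6.47% of all genes lay over 0.5 (log2) from the mean of the other arrays of their group. Of the 113 receptor genes 0 did, and the same was so on every other array. No such share was taken over genes of equally low signal, so this count does not set receptor genes apart from them. Mutant-labelled replicate 2 had the largest 3' minus 5' difference over 3 pairs of control probe sets, 2.03 against 1.20 to 1.48 elsewhere.

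Receptor genes had low signal on every array. Signals are log2 values made with RMA, and they were placed against the quartiles of all 18769 tested probe sets on the same array, which lay at 5.11 to 5.24 (lower quartile), 6.46 to 6.56 (median) and 8.34 to 8.43 (upper quartile). Between 72 and 74 of the 113 genes were below the lower quartile on a mutant-labelled array, and between 73 and 77 on a wild type array. On all 6 arrays together, 69 genes (61.1%) were below it throughout, 32 were above it throughout, and 12 crossed it. Of all measured genes 12.4% were below the lower quartile on every array. No receptor gene was above the median on all 6 arrays, as 60.2% of all genes were, and none reached the upper quartile on any array. The median receptor gene had a 6-array mean of 4.90, at percentile 18.7 of all probe sets, against 7.44 for the median of all genes. Probe sets bind with different strengths, so these positions do not rank the amounts of transcript of different genes.

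Genes that belong to adult reproduction gave a yardstick for such signals. The list had 18 measured of 23 listed, and those measured were chorion genes of the eggshell, yolk protein genes and seminal fluid genes. The listed photoreceptor opsin genes ninaE, Rh2, Rh3 and Rh4 were among those not measured. The 18 measured genes had 6-array means from 4.02 to 7.10, with a median of 5.41. Of these 8 were below the lower quartile on all 6 arrays and 2 were above the median on all 6. The 113 receptor genes ran from 4.01 to 6.61. The receptor genes thus started at nearly the same low signal as these genes of adult organs and ended lower. No detection calls were used, so which signals lay above background was not measured, and precision is limited by having 3 arrays a group.

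**Figure D1:**
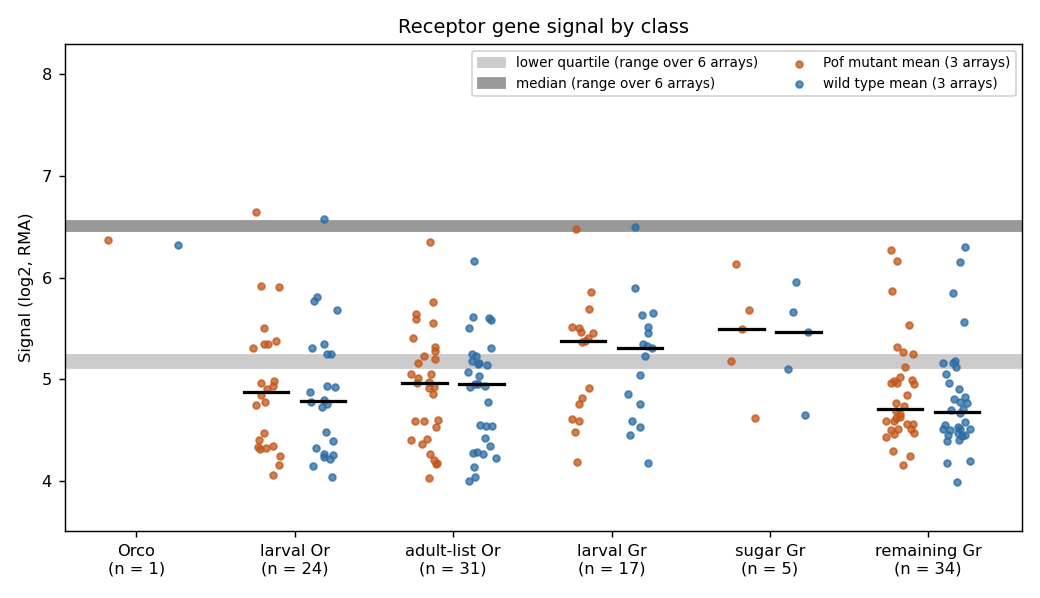
Signal (log2, RMA) of the 112 receptor genes that fall in a class shown, as the mean of 3 mutant-labelled arrays (left of each pair) and of 3 wild type arrays (right); black bars are class medians, and grey bands span the lower quartile (5.11 to 5.24) and median (6.46 to 6.56) of the 6 arrays. Most points in both Or lists and in the remaining Gr genes lie below the lower band, and Or94a is the only gene whose group means both lie above the upper band.

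Orco, the co-receptor that all odorant receptor neurons share, was the second brightest Or gene and the third brightest receptor gene. Its signal was 6.36, 6.40 and 6.36 on the mutant-labelled arrays, against 6.32, 6.44 and 6.20 on the wild type arrays. Every value lay under the median of its array, the groups overlapped, and the difference was 0.05 (log2, 95% interval -0.14 to 0.24, limma adjusted p = 0.878).

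The brightest receptor gene was Or94a, a receptor of larval olfactory neurons. It gave 6.78, 6.58 and 6.57 in mutant-labelled larvae, against 6.72, 6.66 and 6.37 in wild type larvae, above the array median on 5 of 6 arrays and below it on wild type replicate 3. In the reference table both Or94a and its neighbour Or94b lie within Nha2, a gene named for a sodium/hydrogen antiporter, which averaged 8.54 on mutant-labelled and 8.52 on wild type arrays. The table gives no strand, and whether Nha2 transcripts add to the Or94a signal was not tested. Or94b was dimmer, with 5.40, 5.23 and 5.40 on the mutant-labelled arrays, against 5.19, 5.26 and 5.28 on the wild type arrays.

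Other larval odorant receptor genes spanned most of the range. The list of 25 Or genes reported in larval olfactory neurons had 24 measured members, with a median 6-array mean of 4.84, 15 of them below the lower quartile on all 6 arrays and 0 above the median on all 6. After Or94a, its brightest members were Or45b, Or74a and Or30a. Or45b had 5.87, 6.10 and 5.74 in mutant-labelled larvae, against 5.77, 5.85 and 5.81 in wild type larvae. Or74a had 6.16, 5.74 and 5.85 on the mutant-labelled arrays, against 5.86, 5.80 and 5.64 on the wild type arrays, its highest value on mutant-labelled replicate 1. Or30a had 5.64, 5.42 and 5.46 in mutant-labelled larvae, against 5.75, 5.75 and 5.56 in wild type larvae, and its groups overlapped because mutant-labelled replicate 1 exceeded wild type replicate 3. Its difference of -0.18 (95% interval -0.39 to 0.03, limma adjusted p = 0.463) was the most negative of all receptor genes. The dimmest larval members were Or33a, Or13a, Or49a and Or22c, with 6-array means between 4.05 and 4.28. Or13a, known in adults for its answer to a mushroom alcohol, averaged 4.16 ± 0.04 on the mutant-labelled arrays and 4.14 ± 0.06 on the wild type arrays (SD, n = 3 each). Or49a, known for detecting an odour of parasitoid wasps, read 4.30, 4.23 and 4.21 in mutant-labelled larvae, against 4.18, 4.16 and 4.29 in wild type larvae. Both sat far below the lower quartile everywhere.

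Odorant receptors listed for larvae did not have a higher median signal than those listed for adults alone. Of 34 listed adult Or genes, 31 were measured, with a median 6-array mean of 4.96, and 19 were below the lower quartile on all 6 arrays. The median of the larval list minus that of the adult list was -0.06, -0.11 and -0.09 on the mutant-labelled arrays, against -0.25, -0.06 and -0.15 on the wild type arrays, and -0.13 for the 6-array means. The larval list had the lower median on each array. The lists were compared as a description, with no test, since different probe sets cannot be ranked by amount. The brightest adult-list gene was Or43a, an antennal receptor, with 6.46, 6.26 and 6.32 on the mutant-labelled arrays, against 6.07, 6.23 and 6.21 on the wild type arrays, with all mutant-labelled values above all wild type values (difference 0.18, 95% interval -0.02 to 0.38, limma adjusted p = 0.426).

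**Figure D2:**
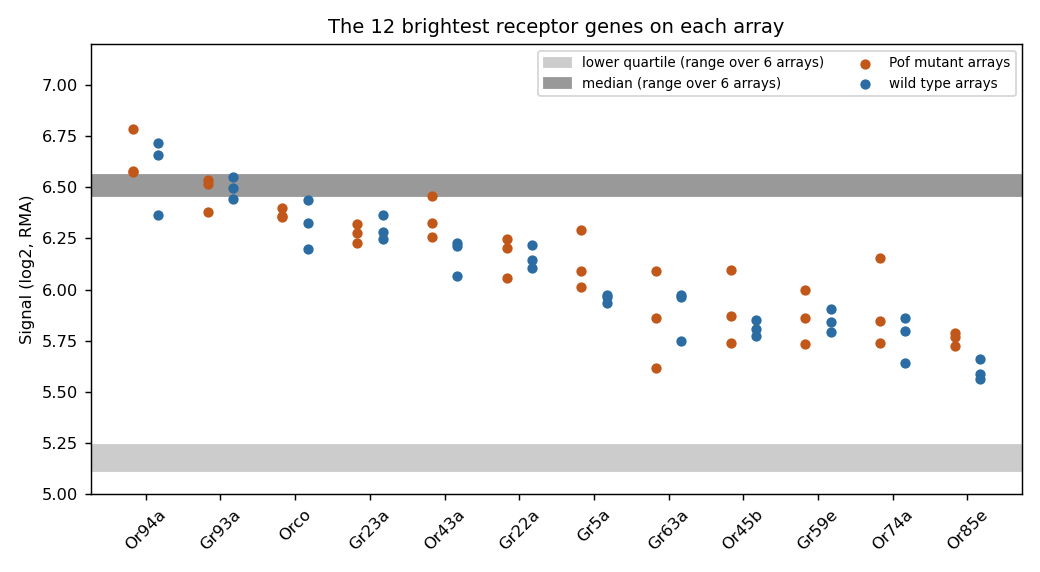
Signal (log2, RMA) of the 12 receptor genes with the highest 6-array means, with each dot an array (mutant-labelled left, wild type right) and grey bands for the range of the array medians and lower quartiles. Or94a straddles the median band and the other genes lie at or below it; for Or43a, Gr5a and Or85e the 3 mutant-labelled dots lie above the 3 wild type dots.

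Among the gustatory receptors, the carbon dioxide pair was above the lower quartile on all arrays. Gr21a and Gr63a are both needed for the carbon dioxide response. Gr63a gave 6.09, 5.62 and 5.86 in mutant-labelled larvae, against 5.97, 5.97 and 5.75 in wild type larvae; its within-group SD (0.19, pooled over both groups) was the largest of any receptor gene. Gr21a gave 5.55, 5.44 and 5.41 on the mutant-labelled arrays, against 5.33, 5.48 and 5.55 on the wild type arrays. The groups overlapped for both, with differences of -0.04 (95% interval -0.35 to 0.27) for Gr63a and 0.01 (-0.19 to 0.21) for Gr21a.

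Bitter receptor genes ranged widely. Gr32a, Gr33a and Gr66a are used broadly by bitter-sensing neurons, and Gr93a, Gr33a and Gr66a are needed for the adult response to caffeine. Gr93a gave 6.52, 6.38 and 6.53 in mutant-labelled larvae, against 6.55, 6.498 and 6.44 in wild type larvae, the second highest receptor gene. Gr32a gave 5.43, 5.34 and 5.33 on the mutant-labelled arrays, against 5.39, 5.43 and 5.22 on the wild type arrays. Gr66a read lower, with 4.998, 4.98 and 4.76 in mutant-labelled larvae, against 5.02, 5.05 and 5.05 in wild type larvae, and all its mutant-labelled values lay below all its wild type values (difference -0.13, 95% interval -0.33 to 0.07, limma adjusted p = 0.613). Gr33a was dimmer still, at 4.65, 4.52 and 4.59 on the mutant-labelled arrays, against 4.61, 4.70 and 4.45 on the wild type arrays. The 10 listed bitter genes had a median 6-array mean of 5.09, 5 were below the lower quartile on all 6 arrays, and 0 passed the test.

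Sugar receptor genes were mostly between the lower quartile and the median. The receptors Gr5a (trehalose), Gr61a (glucose) and the Gr64 cluster serve sweet-sensing neurons of the adult, while Gr43a (fructose) is the main sugar sensor described in larvae. Gr5a, the brightest of the 5 measured of 9 listed, gave 6.29, 6.09 and 6.01 in mutant-labelled larvae, against 5.94, 5.97 and 5.97 in wild type larvae, with every mutant-labelled value above every wild type value (difference 0.17, 95% interval -0.03 to 0.38, limma adjusted p = 0.467). Gr61a gave 5.83, 5.56 and 5.65 on the mutant-labelled arrays, against 5.73, 5.70 and 5.56 on the wild type arrays. Gr64f gave 5.56, 5.40 and 5.51 in mutant-labelled larvae, against 5.50, 5.46 and 5.45 in wild type larvae. Gr64a lay near the lower quartile, at 5.18 ± 0.06 on mutant-labelled and 5.10 ± 0.11 on wild type arrays (SD, n = 3 each). Gr43a was the dimmest of the list, with 4.66, 4.64 and 4.55 on the mutant-labelled arrays, against 4.65, 4.74 and 4.56 on the wild type arrays, below the lower quartile on all 6 arrays.

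Gr28a, a larval Gr gene, had the most negative difference of the family. It read 5.68, 5.48 and 5.38 in mutant-labelled larvae, against 5.57, 5.69 and 5.71 in wild type larvae (difference -0.14, 95% interval -0.36 to 0.08, limma adjusted p = 0.627), and its groups overlapped on mutant-labelled replicate 1.

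The list of 18 Gr genes reported in larvae, all measured, had a median 6-array mean of 5.34, with 8 genes below the lower quartile on all 6 arrays. Of the 34 Gr genes in neither this list nor the sugar list, 26 were, with a median of 4.69. The brightest of these 34 were Gr23a, with 6.32, 6.23 and 6.28 on the mutant-labelled arrays, against 6.28, 6.25 and 6.36 on the wild type arrays, and Gr22a, with 6.20, 6.05 and 6.25 in mutant-labelled larvae, against 6.10, 6.14 and 6.22 in wild type larvae.

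Separate probe sets of the same gene differed far more than the groups did. For Gr23a the brightest of 3 probe sets had a 6-array mean of 6.29 and the dimmest 4.27. The 2 probe sets of Gr93a averaged 6.49 and 4.48. The 5 probe sets of Gr39a, a gene whose alternative first exons encode different receptors, averaged 5.37, 5.13, 4.56, 4.11 and 3.80. Or35a, Or46a and Or69a had 3 probe sets each, spanning 1.27, 0.86 and 1.34 on the log2 scale. The rank of a gene among the receptors therefore depended on which probe set stood for it. Over these 19 probe sets the difference between groups ran from -0.11 to 0.16, and 0 passed the test.

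**Figure D3:**
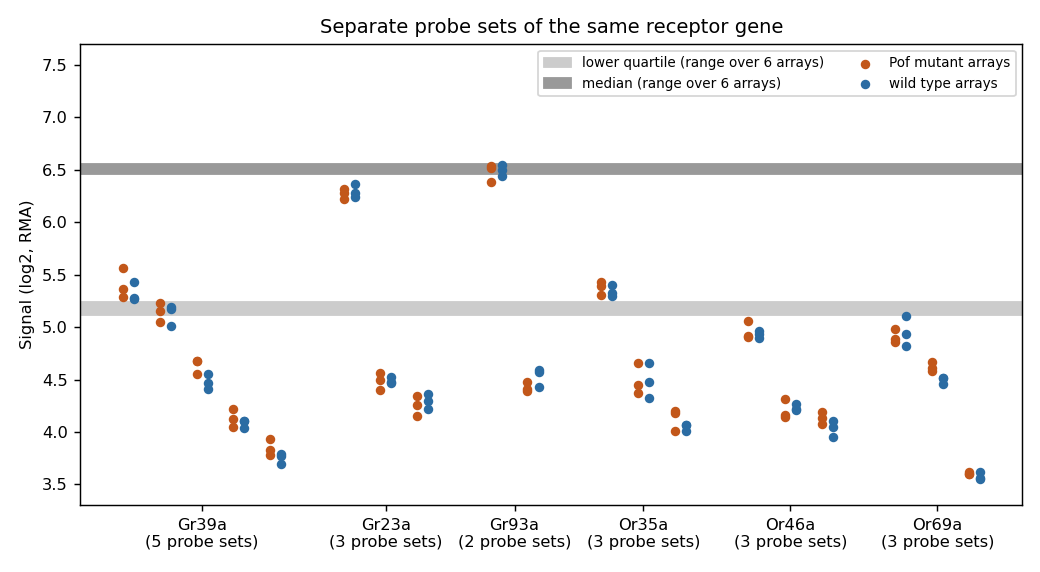
Signal (log2, RMA) of each probe set of the 6 receptor genes read by more than 1, in order of brightness within a gene, with mutant-labelled arrays left and wild type arrays right of each position and grey bands for the range of the array medians and lower quartiles. Probe sets of Gr23a and Gr93a span 2.01 on the log2 scale, while the group means at any position differ by at most 0.16.

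Between the groups no receptor gene passed the test. By limma with Benjamini-Hochberg adjustment over all 18769 probe sets, 0 of 113 genes had an adjusted p under 0.05, where 4.09% of all genes did (2.65% higher and 1.44% lower), and 0 had one under 0.10. Most receptor genes (73) had a 6-array mean below the lower quartile of such means over all probe sets. Of all 1815 genes that did, called dim genes here, 0.331% passed the test. At an unadjusted p under 0.05 there were 4 receptor genes (3.54%), all higher on the mutant-labelled arrays, against 16.8% of all genes and 4.19% of dim genes. Fewer cells of a type and less RNA per cell cannot be told apart in whole larvae, and this holds for every difference given here.

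The differences were small and closely bounded on the RMA scale. They ran from -0.18 for Or30a to 0.22 for Gr77a, with a median SE of 0.085. The 95% intervals of all 113 genes lay within 1.5-fold either way, which 84.3% of all genes also met, and those of 85 lay within 1.25-fold. The outermost bound was 1.41-fold higher, for Or47a, a receptor of fruit esters, whose difference was 0.19. RMA compresses the folds of dim probe sets toward 0, so an interval bounds the change in signal and not that in transcript.

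The smallest p belonged to Gr77a, a gustatory receptor gene also reported in larvae. It gave 5.49, 5.44 and 5.43 on the mutant-labelled arrays, against 5.26, 5.22 and 5.20 on the wild type arrays. The groups did not overlap, and the difference was 0.22 (SE 0.06, 95% interval 0.08 to 0.37, limma adjusted p = 0.148). Its adjusted p ran from 0.0712 to 0.429 over the settings that tested it, and the difference stayed between 0.19 and 0.25. In the reference table Gr77a lies within CG13252, which itself differed by 0.17 (SE 0.14, limma adjusted p = 0.704). Its share in the Gr77a signal was not tested. The next were Gr10a, with 5.002, 4.93 and 4.92 in mutant-labelled larvae, against 4.72, 4.84 and 4.78 in wild type larvae (limma adjusted p = 0.329), and Gr36a, among the dimmest of all receptors, with 4.19, 4.09 and 4.17 on the mutant-labelled arrays, against 3.95, 4.004 and 4.01 on the wild type arrays (limma adjusted p = 0.352). Or85e, a receptor of the adult maxillary palp, gave 5.79, 5.77 and 5.72 in mutant-labelled larvae, against 5.59, 5.66 and 5.56 in wild type larvae (limma adjusted p = 0.366). Each of these 4 genes had all mutant-labelled values above all wild type values, and the largest fold between group means was 1.17. Gr10a overlaps Or10a in the reference table, and Or10a differed by 0.11 (limma adjusted p = 0.669). Its share in the Gr10a signal was not tested.

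In all, 11 receptor genes (9.73%) had every mutant-labelled value above every wild type value, where 14.5% of all genes did. A further 2 (1.77%), Gr66a and Or45a, had every mutant-labelled value below, where 7.95% of all genes did. Or45a, a larval receptor whose neuron drives avoidance, gave 4.31, 4.36 and 4.31 on the mutant-labelled arrays, against 4.54, 4.49 and 4.41 on the wild type arrays, a difference of -0.15 (95% interval -0.32 to 0.01, limma adjusted p = 0.390). In either direction, the groups did not overlap for 22.4% of all genes and 11.9% of dim genes, so the 13 receptor genes of 113 are near the share for dim genes and under that for all genes.

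**Figure D4:**
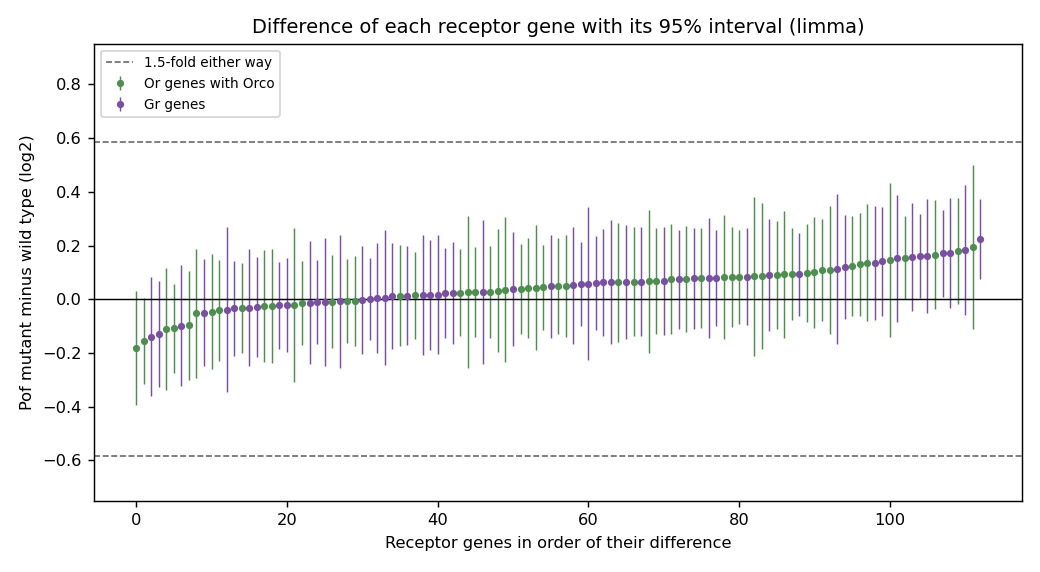
Mutant-labelled minus wild type difference (log2) of each of the 113 receptor genes, sorted, with its 95% interval from limma and dashed lines at 1.5-fold either way. All intervals lie inside the dashed lines, 82 points lie above 0 and 31 below.

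More receptor genes leaned up than down, and the share moved with the arrays included. Of 113 genes 82 (72.6%) were higher on the mutant-labelled arrays and 31 lower, with a median difference of 0.05, against 56.7% higher and a median of 0.02 over all genes. Of all probe sets below the lower quartile of 6-array means, 64.3% were higher. Mutant-labelled replicate 1 held the highest of the 6 values for 71 of the 113 genes, and no other array did for more than 12. The lowest values fell mostly on mutant-labelled replicate 2 (32 genes), wild type replicate 3 (29) and wild type replicate 1 (21). The median deviation of the receptor genes from their 6-array mean was 0.12, -0.04 and -0.01 on the mutant-labelled arrays, against -0.02, -0.002 and -0.06 on the wild type arrays. Over all probe sets below the lower quartile of 6-array means it was 0.07 on mutant-labelled replicate 1 and between -0.03 and 0.0009 on the other arrays. Why that array read higher was not tested. Without mutant-labelled replicate 1, 54 receptor genes (47.8%) were higher and the median difference was -0.0008. Without mutant-labelled replicate 2, 91 (80.5%) were higher, with a median of 0.07. With wild type replicate 1 left out as well, again 91 were higher, with a median of 0.08. After a further quantile normalization or cyclic loess, 65 (57.5%) were higher, with a median of 0.02, against 53.5% of all genes after the quantile step and 48.6% after cyclic loess.

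**Figure D5:**
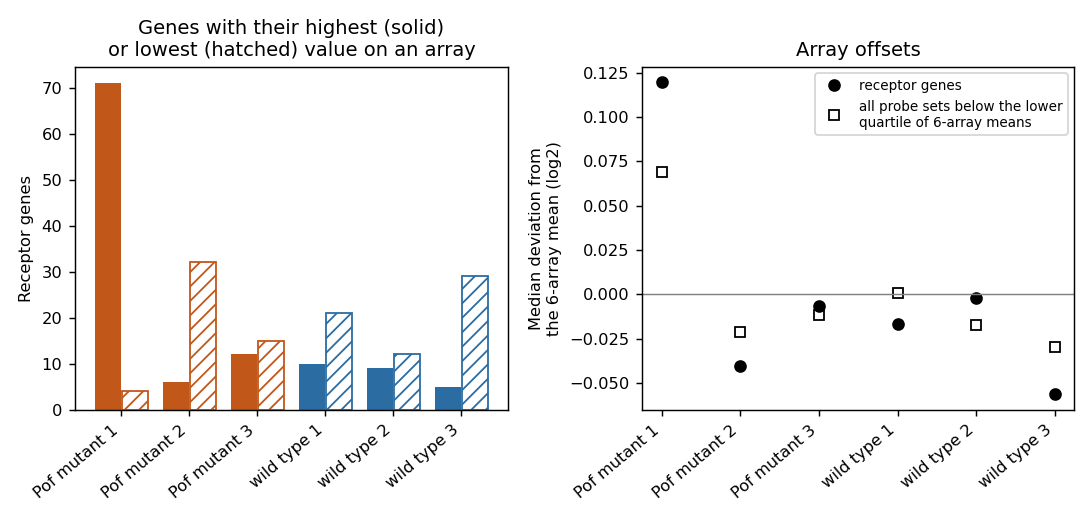
Left, how many of the 113 receptor genes had the highest (solid) or lowest (hatched) of their 6 values on each array; right, median deviation from the 6-array mean (log2) for the receptor genes (filled circles) and for all probe sets below the lower quartile of 6-array means (open squares), with mutant-labelled arrays left of wild type arrays. Mutant-labelled replicate 1 holds the highest value for 71 genes and the largest offset, 0.12.

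Probe sets shared by a pair of receptor genes are no members, but one of them showed a larger difference than any member, and it was chosen here after its values were seen. Or19a and Or19b are near-identical neighbours whose receptor is known in adult flies for its answer to citrus odours. Their shared probe set read 6.08, 5.82 and 5.86 on the mutant-labelled arrays, against 5.49, 5.61 and 5.45 on the wild type arrays. The groups did not overlap, and the difference was 0.40 (SE 0.09, limma adjusted p = 0.0772). Its adjusted p fell under 0.05 after a further quantile normalization (0.0462), cyclic loess (0.0392) or array weights (0.0485), and it reached 0.268 without wild type replicate 3. Probe sets shared by Gr64d and Gr64e, and by Gr64b and Gr64c, differed by 0.07, -0.03 and 0.15, with limma adjusted p of 0.844, 0.952 and 0.641.

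Genes listed as chemosensory partners had a median 6-array mean of 6.005. The list held ionotropic receptor subunits, sensory transcription factors, signalling and channel genes, with 27 of 28 measured. It is a mixed list, and some of its genes serve in other senses. Of these 0 rose and 1 fell, where 2.65% of all genes rose and 1.44% fell, so 1 call in 27 is near the share over all genes. The list had 4 of 27 below the lower quartile on all 6 arrays and a median difference of 0.02, against 0.02 over all genes. The gene that fell was Arr1, an arrestin best known from photoreceptors and also reported in fly olfactory neurons. Arr1 gave 7.39, 7.64 and 7.40 in mutant-labelled larvae, against 8.44, 8.83 and 8.62 in wild type larvae, a difference of -1.15 (SE 0.12, limma adjusted p = 4.06e-03), with the groups well apart. Its adjusted p stayed between 2.33e-04 and 0.0259 over all settings. Other genes of the list that serve in phototransduction did not pass: Arr2 differed by 0.03, rdgB by 0.02 and Galphaq by -0.15, with limma adjusted p of 0.920, 0.963 and 0.906. Ir25a, the broadest co-receptor of ionotropic receptors, gave 5.60, 5.81 and 5.65 on the mutant-labelled arrays, against 5.82, 5.999 and 6.02 on the wild type arrays, a difference of -0.26 (limma adjusted p = 0.247). Its groups did not overlap.

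Neuron markers did not pass either. Of 11 measured genes 0 rose and 0 fell by limma, where 2.65% of all genes rose and 1.44% fell. At an unadjusted p under 0.05 there were 0, against 16.8% of all genes. All 11 had a lower mean in mutant-labelled larvae, with a median difference of -0.13 against 0.02 over all genes. The 15 cuticle genes also all had a lower mean, and for some of them the direction rested on wild type replicate 1. The part of these single arrays in the neuron marker values was not tested. The vesicle protein gene Syn averaged 10.1 ± 0.13 on the mutant-labelled arrays and 10.5 ± 0.26 on the wild type arrays (SD, n = 3 each; difference -0.32, limma adjusted p = 0.384), and the active zone gene brp gave 7.60, 7.31 and 7.30 in mutant-labelled larvae, against 7.49, 7.62 and 7.69 in wild type larvae (difference -0.19, limma adjusted p = 0.504). Without wild type replicate 1 Syn passed, at -0.47 (limma adjusted p = 0.0485), as did 536 of all 11981 genes.

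The signals are also given by position in the genome. The 45 genes directly beside another receptor gene had a median 6-array mean of 4.91, and the other 68 had 4.89. The 27 genes that overlap another protein-coding gene had a median of 4.89, against 4.91 for the 86 that overlap none. Of the 10 brightest receptor genes, 1 (Or94a) overlaps another protein-coding gene and 9 do not. By arm, the median was 4.59 on 2L, 4.77 on 3R, 4.84 on X, 4.89 on 2R and 5.12 on 3L. These medians are a description of different probe sets and were not tested.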

How the data were processed

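The authors deposited log2 values for each probe set, and the tool named per the submitters' processing notes is RMA, without version or settings. RMA usually includes background correction and quantile normalization over arrays, and it compresses the folds of dim probe sets. Total RNA was isolated with TRIzol and RNeasy and labelled with biotin, per the labels' protocols. Of 18952 probe sets, 183 controls were left out. Genes were named from the platform annotation, updated by gene ID in a RefSeq table (assembly Release 6 plus ISO1 MT) that held all 113 members and was used only for names, arms and gene order.

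All 18769 probe sets of both groups entered 1 fit without covariates (lmFit and eBayes of limma 3.58.1 under R 4.3.3), with Benjamini-Hochberg adjustment over all of them. Differences are mutant-labelled minus wild type, and SE is the moderated standard error. The fit was tested on simulated data. The members, gene lists and tests were chosen with earlier results of these data known. The lists of larval and adult receptors and of partner genes were written from general knowledge and are incomplete. Named genes were Orco, every called receptor gene, the 8 with the smallest p, the 10 brightest, any above all array medians, the 4 largest differences each way, the carbon dioxide and sugar receptors, Gr32a, Gr33a and Gr66a, the 4 brightest and 4 dimmest of the larval Or list, the 2 smallest p and the calls of each other list, and Pof. Or94b, the probe sets shared by receptor genes, genes with several probe sets, onecut, VAChT, nSyb, elav and neighbouring genes were picked once values were known. Other settings were a filter on dim probe sets, other normalizations, variance models and array weights, a replicate block, other choices of probe set, a 0.10 threshold and each array left out.

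Replicate arrays shared 0 identical values.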

Additional observations from a re-analysis of the deposited data

How the results depend on the processing

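No receptor gene was called under any of the 15 alternatives at an adjusted p under 0.05; at 0.10 the reported fit called none, and array weights gave Gr77a 0.0712. Over all genes the calls, 490, ranged from 202 (without wild type replicate 2) to 840 (array weights), with 219, 255, 280 and 300 without wild type replicate 3 and mutant-labelled replicates 1, 3 and 2. Under each alternative for levels, 0 receptor genes lay above the array median on all 6 arrays. The filter on dim probe sets left 8 receptor genes to test. Leaving out single arrays gave 0 receptor calls each time. It gave 1 call among the partner genes each time (Arr1) and 0 to 1 among the neuron markers (1, Syn, without wild type replicate 1). With wild type replicate 1 left out together with mutant-labelled replicate 2, chosen after seeing the data, there were 2 partner calls (Arr1 and onecut) and 2 neuron marker calls (Syn and VAChT). Under that setting 712 of all 11981 genes passed, against 490 in the reported fit. Unlike the receptor genes, onecut lies on chromosome 4, and whether that bears on its call was not tested. The larval minus adult Or median stayed between -0.19 and -0.10. Of 600 recomputed differences of named genes, 56 changed sign, all among genes without a call. Same-numbered arrays shared deviations from their group means weakly (r = 0.18, 0.13 and 0.03 over all probe sets), so the numbers were not taken as pairs. The replicate block gave 0 receptor, 1 partner and 0 neuron marker calls and changed no call among the named genes; over all genes it gave 476 calls against 490. TwdlN, a cuticle gene called at -0.47 (limma adjusted p = 0.0393), lost its call under 7 settings, with an adjusted p of up to 0.138. Array number and dim signal, with no detection calls, limit what these values can show.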

Other observations

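Of the 98 receptor genes with a measured gene directly beside or overlapping them that is not itself a receptor gene, 3 lay beside one that passed the test. These neighbours were 154 genes, of which 3 (1.95%) passed, under the 4.09% of all genes. Or43a is next to Adk3, which averaged 8.10 on mutant-labelled and 6.44 on wild type arrays (difference 1.66, limma adjusted p = 3.40e-03), while Or43a differed by 0.18 (limma adjusted p = 0.426). Gr94a is next to Ctns, at 10.3 and 9.70 (difference 0.65, limma adjusted p = 4.41e-03), and differed by 0.06. Or35a is next to CG7631, at 8.61 and 7.66 (difference 0.94, limma adjusted p = 0.0124), and differed by 0.03.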
